A study of Rattus norvegicus with 24 samples.

Results

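The effect of cigarette smoke on lungs that also received Iraqi sand dust was read from 8 arrays of a 24-array series, 4 rats given smoke and sand against 4 given air and sand, over 14217 genes. Every animal was a male Sprague-Dawley rat with no genetic change named in its labels, listed as 17 weeks old in the labels and as 10 to 15 weeks old in the series text. The smoke-and-sand rats breathed cigarette smoke nose-only at 0.48 mg WTPM per litre, the unit as the labels give it, in sessions of 3 h, on 5 days of each of 5 weeks, and the air-and-sand rats breathed air by the same route. The series text gives 6 weeks for this exposure. In whole-body chambers both groups breathed Iraqi sand at 1 mg per cubic metre for 18 h daily, on all 7 days of each of 2 weeks. The remaining 16 rats had air or silica in place of sand, each with air or smoke, 4 rats to a group, and they enter here as the source of a shared estimate of spread and for comparing the effect of smoke. RNA came from the right caudal lobe, and each rat gave 1 array. Smoke and sand were separate inhalation exposures of the same animal.

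Cigarette smoke draws macrophages and neutrophils into the lung, induces detoxifying enzymes through the aryl hydrocarbon receptor and NRF2, and can alter surfactant lipids made by alveolar type 2 cells. Mineral dust is cleared by alveolar macrophages, which carry it and can release cytokines. The lung also keeps a circadian clock. In it, CLOCK and BMAL1 bind E-boxes and drive the Per, Cry and Nr1d1 genes, PER and CRY proteins block that activity, and the receptors NR1D1 (a repressor) and RORA (an activator) compete at ROR elements of Bmal1.

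All 8 arrays showed lung. Sftpc (surfactant protein C), Sftpb, Scgb1a1 (club cell secretoglobin), Ager (alveolar type 1) and Cldn5 (endothelium) had means at or above percentile 98.4 of all genes, and Sftpc lay between 14.82 and 14.90 in every rat, on the log2 scale of these array values, where 1 unit is a 2-fold difference. Air-and-sand rat 302 stood apart. Its mean correlation with the other 7 arrays over genes was 0.944, against 0.987 to 0.990 for those 7, and limma gave it an array weight of 0.0446, against 0.584 to 2.34. In this rat 235 genes were at least 2-fold above the mean of its 3 group mates and 1211 were at least 2-fold below. Of 27 measured heart and striated muscle genes, 26 were highest of the 4 in rat 302, with a list mean of 8.43 against 5.78 to 5.96 in its mates and 5.78 to 6.38 in the smoke-and-sand rats. Myl7, the atrial light chain, was at 11.51 in rat 302, 4.56 to 5.68 in its mates and 7.98 in smoke-and-sand rat 404. Bpifa1, a secreted protein of the upper airway, was at 12.63 in rat 302 and 6.76 to 7.05 in its mates, and at 7.06, 10.01, 12.13 and 9.26 in smoke-and-sand rats 402, 404, 405 and 406. RNA integrity numbers ran from 8.1 to 9.3 where the labels gave them, with 8.8 for rat 302. Results are therefore given with and without rat 302, and the part of heart or upper airway RNA in them was not tested beyond that.

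Few genes were called for smoke under sand, and on 24 arrays more of the called genes fell than rose. By limma on all 24 arrays, at a Benjamini-Hochberg adjusted p under 0.05, 52 genes rose (0.366% of those tested) and 132 fell (0.928%), together 184 (1.29%). Without rat 302, 38 rose (0.267%) and 54 fell (0.38%), together 92 (0.647%), and 73 genes (0.513%) passed both ways, 29 of them rising and 44 falling. The rises were the larger changes: 17 rises reached 2-fold against 3 falls, and the median log2 difference was 0.77 for the 29 rises called both ways and -0.50 for the 44 falls. Over all genes the median difference was -0.05, and -0.02 without rat 302. The calls depended on having the other 16 rats in the fit. On the 8 arrays alone limma called 0 genes, with a smallest adjusted p of 0.0628. There 1193 genes had an unadjusted p under 0.05, against 2916 on 24 arrays. On the 7 arrays without rat 302 it called 2, both falling. Without that rat, 1870 genes had an unadjusted p under 0.05 on the 7 arrays, against 1906 with the other 16 rats in the fit. The parts of rat 302 and of the shared spread in these counts were not tested. The 4 smoke rats and the 4 air rats did not overlap in 1281 genes (9.01%), 293 with smoke higher (2.06%) and 988 with smoke lower (6.95%), and 173 of the 184 called genes were among these. The call nearest the threshold on the inside had an adjusted p of 0.0496 and the nearest outside 0.0501.

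**Figure D1:**
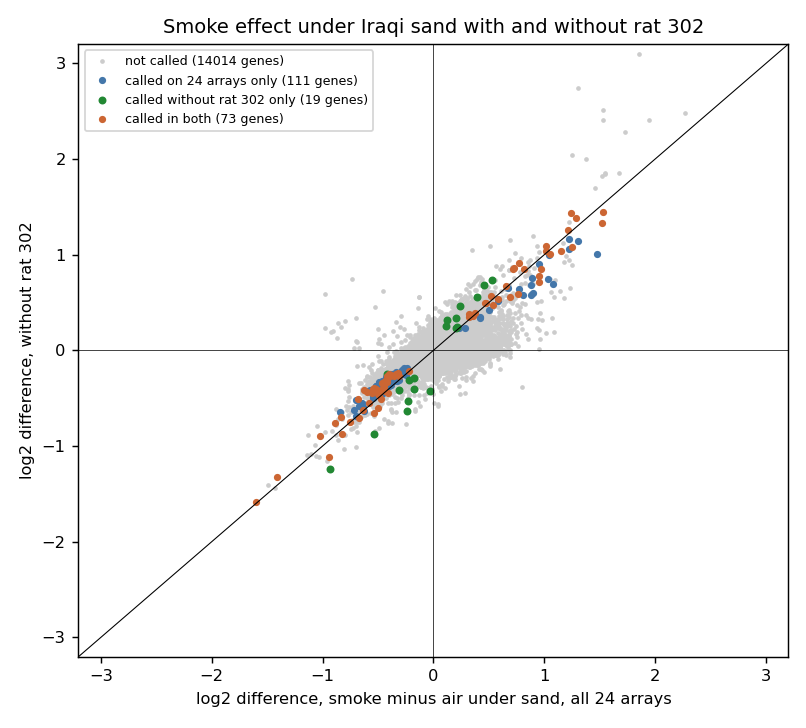
Log2 difference of each of 14217 genes, smoke minus air under Iraqi sand, on all 24 arrays (horizontal axis) and without rat 302 (vertical axis), each point 1 gene; the diagonal line marks equal values. The 73 genes called both ways lie near the diagonal, while the spread of uncalled genes off it shows how far 1 rat moved single estimates.

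The number of calls moved with individual rats of both groups. Leaving out air-and-sand rat 305 gave 102 rises and 601 falls. Leaving out smoke-and-sand rat 406 gave 17 and 13, rat 402 gave 16 and 21, rat 405 gave 37 and 37, and rat 404 gave 31 and 83. Rat 302 was the highest of the 4 air-and-sand rats in 83.3% of the falling genes, against 59.6% of all genes, and the lowest in 51.9% of the rising genes, against 25.1% of all genes. Rats 402 and 406 were the highest pair of the smoke-and-sand group in 27 of the 52 rises (51.9%, against 18.1% of all genes) and in 19 of the 29 called both ways. Rats 302, 402 and 406 all entered the contrast that called these genes, so the choice of genes can raise these shares by itself. Only 22 genes kept an adjusted p under 0.05 whichever 1 of the 8 rats was left out. Of the genes described below, Nipbl, Rora, Ccnd2, C11h21orf91, Klf13, Cpd, Veph1, Bbx, Ston2, Rnf125 and Mtmr9 among the rises and Fam3b, Nr1d1, Them5, Zfpm1, Tfcp2l1 and Mpped2 among the falls belong to those 22. Every gene named below that passed on 24 arrays and not without rat 302 also lost its call without rat 402 and without rat 406.

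**Figure D2:**
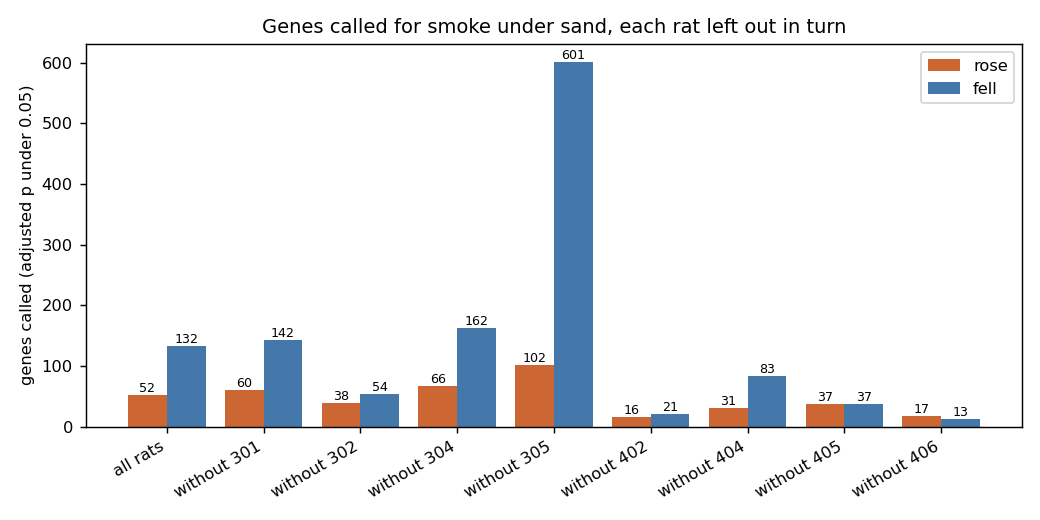
Number of genes called by limma (adjusted p under 0.05) as rising or falling with smoke under sand, with all rats and with each of the 8 rats of the comparison left out; bars start at 0. Counts of falling genes ran from 13 without rat 406 to 601 without rat 305.

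Nr1d1 and Rora, which encode nuclear receptors of the clock, moved in opposite directions under sand. Values are listed in the order of rats 301, 302, 304 and 305 for air and sand, and 402, 404, 405 and 406 for smoke and sand. Nr1d1, the receptor REV-ERB alpha, was at 10.01, 10.39, 10.05 and 9.99 in air-and-sand rats and at 9.03, 8.53, 8.52 and 8.73 in smoke-and-sand rats. All 4 smoke rats lay below all 4 air rats, and Nr1d1 fell 2.66-fold (log2 difference -1.41, SE 0.22, limma adjusted p = 0.00293, and -1.32 with adjusted p = 0.0128 without rat 302). Rora, the activator at the same DNA element, was at 6.41, 5.40, 6.28 and 5.82 under air and at 7.82, 7.36, 6.93 and 7.88 under smoke. The groups again did not overlap, rat 302 was the lowest of all, and Rora rose 2.86-fold (1.52, SE 0.21, adjusted p = 0.00254, and 1.33 with adjusted p = 0.00524 without rat 302). A second, dimmer probe set of Rora, with a mean of 5.52, differed by 0.05.

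The clock's transcriptional repressors gave 2 rises beside the fall of Nr1d1, among 11 measured. Cry1, which blocks CLOCK and BMAL1, was at 8.26, 9.21, 8.66 and 9.08 under air and at a narrow 9.51, 9.57, 9.54 and 9.49 under smoke. It rose 1.65-fold on 24 arrays (0.72, SE 0.16, adjusted p = 0.0334) and without rat 302 (0.86, adjusted p = 0.0157), but the call was lost when rat 301, 304, 402, 404, 405 or 406 was left out, with adjusted p up to 0.0878. Bhlhe41 (DEC2), a repressor that binds E-boxes, was at 9.21, 9.55, 9.99 and 9.70 under air and 10.23, 10.56, 10.15 and 10.21 under smoke, and it rose on 24 arrays (0.67, SE 0.15, adjusted p = 0.0352), with adjusted p = 0.0806 without rat 302 and losses also without rat 301, 402, 404, 405 or 406. Per2 was higher in all 4 smoke rats, at 10.29 to 10.63 against 9.15 to 9.91, and just missed the threshold (0.87, SE 0.22, adjusted p = 0.0505). Over the list 6 members were higher and 5 lower, with a median difference of 0.08 (0.00 without rat 302).

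Of 5 measured clock activators, Rora was the sole call. Npas2, a partner of BMAL1 that can stand in for CLOCK, was lower in all 4 smoke rats, at 6.76 to 7.38 against 7.45 to 8.51, without passing (-0.91, SE 0.30, adjusted p = 0.112). Bmal1 was at 7.61, 7.82, 7.15 and 7.06 under air and 6.64, 7.09, 6.94 and 7.00 under smoke, with overlap between the groups (-0.49, SE 0.28, adjusted p = 0.308). Clock differed by 0.08 with rat 302 and by -0.21 without it, and passed neither way. Among 8 clock outputs limma called 0 (2 at an unadjusted p under 0.05). Wee1, a mitotic kinase under clock control, differed by 0.50 (SE 0.13, adjusted p = 0.0595), and Dbp, whose promoter and introns carry E-boxes, by -0.33 (SE 0.32, adjusted p = 0.558). The labels gave no time of day for tissue collection, so time of collection could not be entered in any fit.

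The stretches of clock promoters that carry the loop's elements are shown for 4 of these genes, with the element in capitals. Only genes whose window holds an element are shown. Nr1d1 and Bhlhe41 passed on 24 arrays, and Per2 and Bmal1 did not. Each is read 5′ to 3′ on the gene's strand from the 250 bases before a RefSeq start in assembly GRCr8, with up to 30 bases on each side. Letters CACGTG mark the E-box, TTATGTAA the D-box bound by DBP and its relatives, and TAGGTCA the core of a ROR element.
Nr1d1 (chr10:84229610-84229675, minus strand, 191 bases before one of its starts): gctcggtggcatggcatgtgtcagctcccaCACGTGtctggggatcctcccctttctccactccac
Bhlhe41 (chr4:180569368-180569433, minus strand, 48 bases before the start): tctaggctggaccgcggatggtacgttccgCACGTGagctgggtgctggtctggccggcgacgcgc
Per2 (chr9:99497148-99497215, minus strand, 192 bases before the start): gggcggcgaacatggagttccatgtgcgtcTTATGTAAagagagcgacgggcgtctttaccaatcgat
Bmal1 (chr1:176766282-176766327, plus strand, 16 bases before the start): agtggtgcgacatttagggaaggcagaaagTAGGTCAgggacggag
Searched on both strands, with exact letters, the E-box was in 5.59% of 33469 RefSeq windows of the same length, the D-box in 0.828% and the ROR element in 2.26%. Windows were found for 19 of the 24 measured clock genes. Among the windows of these genes, 4 held an E-box, 1 a ROR element and 1 a D-box. The Rora window held none of these letters. The Nr1d1 and Bhlhe41 stretches carry the same 6 letters, and Nr1d1 fell while Bhlhe41 rose. A match describes the letters in this window and is not a measured binding site.

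**Figure D3:**
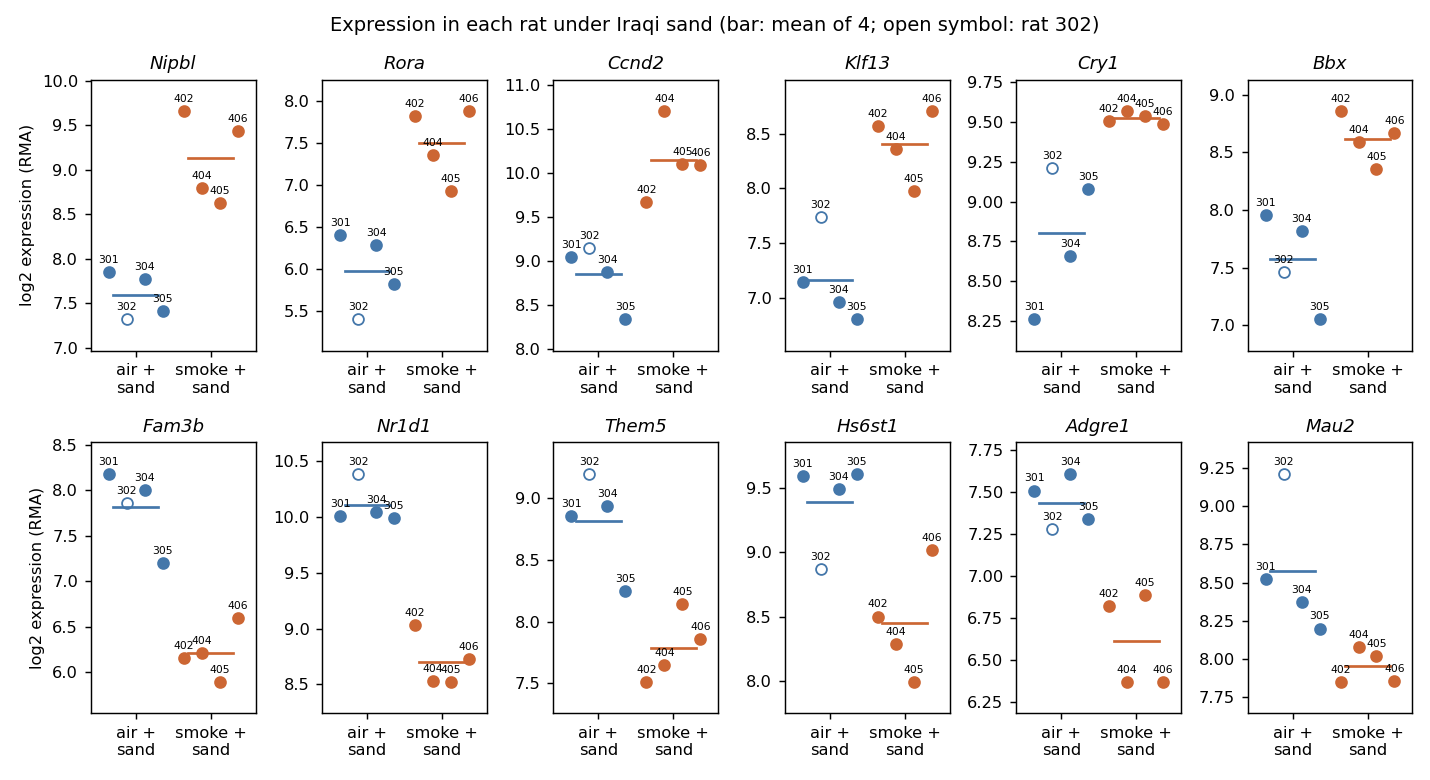
Log2 expression of 12 genes in each of the 8 rats under Iraqi sand, with air (left) or smoke (right); each point is 1 rat labelled by its number, the bar is the mean of 4, the open symbol is rat 302, and each panel has its own vertical range. In every panel except that of Hs6st1 the smoke rats lie wholly above or below the air rats.

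The other large rises called both ways are given by role, not by size. Nipbl, which loads the cohesin ring onto chromosomes, was at 7.85, 7.32, 7.77 and 7.42 under air and 9.66, 8.79, 8.63 and 9.43 under smoke. Rats 402 and 406 were the highest, the groups did not overlap, and Nipbl rose 2.89-fold (1.53, SE 0.22, adjusted p = 0.00254, and 1.44 without rat 302). The gene has 4 probe sets, and they disagreed: with every probe set fitted as its own row, another rose by 1.85 (adjusted p = 0.0153), while the remaining pair differed by 0.31 (adjusted p = 0.445) and by -0.11 (adjusted p = 0.698). Mau2, NIPBL's partner in the cohesin loader, moved the other way. It was at 8.52, 9.21, 8.37 and 8.20 under air and 7.85, 8.08, 8.02 and 7.86 under smoke, and it fell 1.54-fold (-0.62, SE 0.14, adjusted p = 0.0334, and -0.41 without rat 302). Rat 302 was the highest, the call was lost without rat 402, 405 or 406, and the 4 other probe sets of Mau2 differed by between -0.20 and 0.07, none past the threshold.

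Ccnd2, cyclin D2, a driver of entry into the cell cycle, was at 9.05, 9.15, 8.88 and 8.34 under air and 9.67, 10.70, 10.10 and 10.09 under smoke. The groups did not overlap, rat 404 was the highest, and Ccnd2 rose 2.43-fold (1.28, SE 0.19, adjusted p = 0.00254, and 1.38 without rat 302). It was the sole call among 12 D cyclins and inhibitors of cyclin-dependent kinases, of which 8 were lower, with a median of -0.16. Rat 302 was the highest air rat for 10 of the 12, and without it 7 were lower, with a median of -0.05, and genes at an unadjusted p under 0.05 went from 5 to 1. Among 35 measured genes of cell cycle and proliferation limma called 0 on 24 arrays (3 at an unadjusted p under 0.05) and 0 without rat 302, with a median of 0.06.

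Klf13, a transcription factor of the Krüppel-like family, was at 7.14, 7.74, 6.96 and 6.80 under air and 8.57, 8.36, 7.98 and 8.71 under smoke. Rat 302 was the nearest air rat to the smoke rats, and the 2.37-fold rise (1.25, SE 0.19, adjusted p = 0.00266) was larger without it (1.44, adjusted p = 0.000641). It was the sole call among 14 family members, 8 of which were lower. Bbx, an HMG-box DNA-binding protein, was at 7.96, 7.46, 7.82 and 7.05 under air and 8.86, 8.59, 8.36 and 8.67 under smoke, a rise of 2.07-fold (1.05, SE 0.15, adjusted p = 0.00254). Ubn2, of the HIRA histone chaperone complex, rose 2.03-fold (1.02, SE 0.20, adjusted p = 0.0189), a call that ended without rat 402 or 406, and its second probe set differed by -0.06.

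Cpd, carboxypeptidase D of the trans-Golgi network, was at 9.52, 9.47, 9.27 and 9.12 under air and 11.18, 10.19, 9.80 and 11.09 under smoke. Rats 402 and 406 lay clearly above rats 404 and 405 in this 2.33-fold rise (1.22, SE 0.22, adjusted p = 0.0115), and a second, dimmer probe set differed by 0.02. C11h21orf91 rose 2.38-fold (1.25, SE 0.18, adjusted p = 0.00254), and its second probe set rose as well (0.56, adjusted p = 0.0187). Veph1, a pleckstrin-homology protein, rose 2.22-fold (1.15, adjusted p = 0.0128). Ston2, a stonin that sorts cargo in clathrin endocytosis, rose 2.03-fold from a low level of 4.66 to 4.92 (1.02, adjusted p = 0.00719). Prex2, an exchange factor for Rac, rose 1.95-fold (0.97, adjusted p = 0.0163, with the call lost without rat 402 or 406). Rnf125, a ubiquitin ligase, rose 1.94-fold (0.96, adjusted p = 0.00625).

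Several large rises passed with rat 302 included and not without it. Ccar1, a regulator of transcription and apoptosis, was at 8.18, 6.18, 8.05 and 7.90 under air and 9.41, 8.86, 8.44 and 9.51 under smoke. Rat 302 lay far below its mates, and the difference of 1.48 (SE 0.33, adjusted p = 0.0328) became 1.01 without it (adjusted p = 0.0544). Its 3 other probe sets differed by 0.14 to 0.56 on 24 arrays, and 1 of them by -0.03 without rat 302. Bmpr2, the type II BMP receptor, differed by 1.22 (adjusted p = 0.0426) and by 1.06 without rat 302 (adjusted p = 0.123), with rats 402 and 406 at 11.06 and 10.69 against 9.90 and 9.39 in rats 404 and 405. Crim1, a membrane protein that binds BMP ligands, differed by 1.22 (adjusted p = 0.0204) and by 1.17 without rat 302 (adjusted p = 0.0526). Fmo2, the main flavin-containing monooxygenase of lung, was at 10.19 in rat 302 and 11.48 to 12.04 in its mates, and differed by 1.08 (adjusted p = 0.0398) or by 0.70 without that rat (adjusted p = 0.065). After each group's mean was taken out, the 5 genes closest to Nipbl over the 8 arrays were Sfpq, Fhl1, Bmpr2, Slit2 and Crim1, with Pearson's r from 0.95 to 0.99, and for Nr1d1 the closest included Hcfc1 at 0.98 and Tox4 at 0.97. These correlations describe 8 arrays that share the same residuals, rat 302 included.

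Fam3b showed the largest fall. This secreted cytokine-like protein of epithelia was at 8.18, 7.86, 8.0 and 7.20 under air and 6.15, 6.21, 5.89 and 6.59 under smoke. The groups did not overlap, and it fell 3.03-fold (-1.60, SE 0.25, adjusted p = 0.003), with -1.58 (adjusted p = 0.0106) without rat 302. Them5, a mitochondrial acyl-CoA thioesterase linked to cardiolipin, was at 8.86, 9.20, 8.94 and 8.25 under air and 7.51, 7.65, 8.14 and 7.86 under smoke. Its highest smoke rat, 405, came close to its lowest air rat, 305, and it fell 2.03-fold (-1.02, SE 0.17, adjusted p = 0.00649).

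Hs6st1, which adds sulfate to heparan sulfate, was at 9.59, 8.87, 9.49 and 9.61 under air and 8.50, 8.29, 7.99 and 9.02 under smoke. Rat 302 lay below smoke rat 406, so the groups overlapped, and the fall of 1.92-fold (-0.94, SE 0.22, adjusted p = 0.0404) was larger without rat 302 (-1.12, adjusted p = 0.0238). The call was lost without rat 301, 304, 402, 404 or 405. Zfpm1, the GATA cofactor FOG1, fell 1.85-fold (-0.89, SE 0.15, adjusted p = 0.00625), while its 2 other probe sets differed by 0.02 and -0.09. Tfcp2l1, a transcription factor of epithelia and stem cells, was at 9.40, 9.25, 9.39 and 8.89 under air and 8.36, 8.57, 8.46 and 8.54 under smoke, a fall of 1.68-fold (-0.75, SE 0.14, adjusted p = 0.0128).

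Ppp1r1b, the phosphatase inhibitor DARPP-32, fell by 0.83 on the log2 scale (adjusted p = 0.015). Bcl7c, a subunit of SWI/SNF chromatin remodelling complexes, fell by 0.68 (adjusted p = 0.0168), and by 0.50 without rat 302. Hgd, homogentisate dioxygenase of tyrosine breakdown, fell by 0.67 (adjusted p = 0.0243) at a low level, 5.12 to 5.51 under air against 4.44 to 4.63 under smoke. Mpped2, a metallophosphoesterase, fell by 0.64 (adjusted p = 0.00625). The Ppp1r1b call ended without rat 406, that of Bcl7c without rat 402 or 406, and that of Hgd without rat 301, 402 or 406. Across the 73 genes called both ways, 19 had other probe sets, 32 in all: 21 of these moved the same way and 3 passed the threshold over all probe sets.

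The 5 largest falls that passed with rat 302 and not without it included 4 in which that rat was the highest air rat. Zap70, a kinase of the T cell receptor, was at 8.73, 9.36, 8.53 and 8.39 under air and 7.88, 7.74, 7.78 and 8.23 under smoke, a difference of -0.84 (adjusted p = 0.0442) or -0.64 without rat 302 (adjusted p = 0.13). Arsi, a sulfatase, differed by -0.72 (adjusted p = 0.031), and by -0.62 without rat 302 (adjusted p = 0.0858). Adra1b, an adrenergic receptor, differed by -0.70 (adjusted p = 0.0301), and by -0.52 without rat 302 (adjusted p = 0.0659). Rap1gap, which switches off Rap1, differed by -0.67 (adjusted p = 0.0334), and by -0.58 without rat 302 (adjusted p = 0.0933). Bnc1, basonuclin of mesothelium and basal epithelium, differed by -0.70 (adjusted p = 0.0398) and by -0.69 without rat 302 (adjusted p = 0.0832), with rat 302 at 6.30, inside its mates' 6.10 to 6.43.

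Conversely, 19 genes passed only once rat 302 was left out, 9 rising and 10 falling. Trps1, a GATA-type repressor, was at 8.33, 6.88, 8.21 and 7.71 under air and 6.54, 7.32, 7.20 and 6.34 under smoke, so rat 302 sat among the smoke rats. Its difference was -0.93 (adjusted p = 0.0575) with that rat and -1.24 (SE 0.20, adjusted p = 0.00731) without it. Its 3 other probe sets went the other way on 24 arrays, by 0.65 (adjusted p = 0.0525 over all probe sets), 0.25 and 0.30, and without rat 302 they differed by 0.49, -0.07 and -0.06. Itgb6, the epithelial integrin chain that activates TGF-beta, differed by -0.54 (adjusted p = 0.198) with rat 302 and by -0.88 (adjusted p = 0.0157) without it. Ank3, an ankyrin of lateral membranes, differed by -0.24 and by -0.63 (adjusted p = 0.0157), with rat 302 at 8.89 and its mates at 10.38 to 10.56. Lyrm1, a mitochondrial LYR-motif protein, differed by 0.46 and by 0.69 (adjusted p = 0.0471).

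Macrophage markers were mostly higher with smoke, with few calls. Of 26 measured, 22 were higher, with a median difference of 0.37 (0.26 without rat 302), against 5733 of 14217 genes higher overall. Of these, 1 rose and 1 fell. Gpnmb, a glycoprotein of lipid- and dust-laden macrophages, was at 12.04, 11.90, 12.74 and 12.51 under air and 12.98, 13.46, 13.04 and 13.26 under smoke, and rose 1.85-fold on 24 arrays (0.89, SE 0.19, adjusted p = 0.0287), with 0.76 and adjusted p = 0.0809 without rat 302. Cd68, a lysosomal protein of macrophages, was higher in all 4 smoke rats without passing (0.68, SE 0.19, adjusted p = 0.0708). Adgre1, an adhesion receptor used as a macrophage marker, went the other way: it was at 7.51, 7.28, 7.61 and 7.34 under air and 6.82, 6.37, 6.89 and 6.37 under smoke, and fell 1.77-fold (-0.82, SE 0.15, adjusted p = 0.0128, and -0.88 without rat 302), a call that ended without rat 406. In whole-lobe RNA, fewer cells of a type and less RNA per cell cannot be told apart.

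Of 9 neutrophil markers 7 were higher, with a median of 0.20, and the sole call was Cxcr1, a receptor for CXC chemokines (0.96, SE 0.22, adjusted p = 0.0386, and 0.0938 without rat 302). S100a9, a calcium-binding protein of neutrophils, was at 9.34 to 10.59 under air and 10.76 to 11.66 under smoke, which did not overlap and did not pass (1.20, SE 0.41, adjusted p = 0.116). Cxcl1, a neutrophil attractant, was at 8.83, 8.61, 9.68 and 9.31 under air and 10.90, 10.46, 9.55 and 10.75 under smoke. Rat 405 lay below air rat 304, and Cxcl1 rose 2.48-fold on 24 arrays (1.31, SE 0.26, adjusted p = 0.019), with 1.14 and adjusted p = 0.057 without rat 302. It was the sole call of 39 cytokines and chemokines, whose median was -0.02 with 19 higher, and 0.08 with 25 higher and 0 called (8 at an unadjusted p under 0.05) without rat 302.

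The other inflammatory genes reported for every list did not pass on 24 arrays. Lcn2, an iron-trapping antimicrobial protein, was at 11.53, 12.61, 12.39 and 8.41 under air and 12.86, 12.95, 13.39 and 13.54 under smoke, a difference of 1.95 with an SE of 1.20 (adjusted p = 0.342). Spp1, osteopontin, was at 6.69, 8.18, 6.24 and 8.01 under air and 6.85, 6.86, 10.30 and 11.20 under smoke (1.53, SE 0.86, adjusted p = 0.307). Mmp12, the macrophage elastase, differed by 0.39 (SE 0.48), Il1b by 0.38 (SE 0.36), Cxcl2 by 0.87 (SE 0.26, adjusted p = 0.0843) and Ccl2 by -0.09 (SE 0.60). Col1a1, a fibrillar collagen chain, differed by -0.08 (SE 0.40), and of 23 matrix and fibroblast genes limma called 0 (0 at an unadjusted p under 0.05).

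Lymphocyte markers were lower under smoke. Of 24 T and NK cell genes 23 were lower, with a median of -0.49, and Zap70 was the sole call. Rat 302 was the highest air rat for 20 of the 24, with a list mean of 8.56 against 7.85 to 8.11 in its mates and 7.52 to 7.90 in the smoke rats. Without it 22 were lower, the median was -0.26, and limma called 0 (3 at an unadjusted p under 0.05). All 8 B and plasma cell genes were lower on 24 arrays, with a median of -0.43 and 0 called (4 at an unadjusted p under 0.05), and 6 were lower without rat 302, with -0.27. Among 20 interferon-stimulated genes 15 were lower, with a median of -0.30, and limma called 0 (5 at an unadjusted p under 0.05). Without rat 302 that median was -0.16, with 16 lower, 0 called and 1 at an unadjusted p under 0.05.

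Alveolar type 2 genes were mostly slightly lower, while the alveolar type 1 list depended on rat 302. Of 19 alveolar type 2 and surfactant genes 16 were lower, with a median of -0.15 (-0.13 without rat 302, 18 lower). Lpcat1, which makes the dipalmitoyl lecithin of surfactant, was at 11.90, 12.13, 11.77 and 11.71 under air and 11.30, 11.31, 11.34 and 11.54 under smoke, and fell 1.41-fold on 24 arrays (-0.50, SE 0.11, adjusted p = 0.0301, and 0.0809 without rat 302). Abca3, the lipid pump of lamellar bodies, fell by 0.33 (SE 0.07, adjusted p = 0.0334, and 0.0785 without rat 302). Of 9 alveolar type 1 genes 6 were lower on 24 arrays, with a median of -0.08, against 8484 of 14217 genes lower in all. Rat 302 was the lowest air rat for 7 of the 9. Without it 9 were lower, with a median of -0.14, and limma called 0 (3 at an unadjusted p under 0.05). Aqp5, the water channel of alveolar type 1 cells, was at 12.07 to 12.19 under air and 11.67 to 11.80 under smoke, a fall of 0.38 (SE 0.09, adjusted p = 0.0359, and 0.0809 without rat 302). The surfactant protein gene Sftpc differed by -0.04 and the club cell gene Scgb1a1 by -0.01 (0 called, limma adjusted p = 0.64 and 0.909). Both lay at 14.78 to 14.97 in all 8 rats, near the arrays' highest value of 15.04, where a change can be hidden.

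Cholesterol synthesis, respiration and protein breakdown showed small shifts, mostly downward. Of 18 cholesterol synthesis genes 17 were lower, with a median of -0.21 (-0.20 without rat 302). Fdft1, squalene synthase, was at 9.40 to 9.88 under air and 9.02 to 9.21 under smoke and did not pass (-0.48, SE 0.14, adjusted p = 0.0824). Insig1, which holds the sterol sensor in the endoplasmic reticulum, was at 10.73, 10.31, 10.78 and 10.71 under air and 10.23, 10.34, 10.38 and 10.34 under smoke, and fell without rat 302 (-0.42, adjusted p = 0.0157) but did not pass with it (-0.31, adjusted p = 0.089). Of 23 fatty acid and phospholipid synthesis genes 16 were lower, with a median of -0.13, and 15 without rat 302, with -0.06. Among all 14217 genes 8484 were lower on 24 arrays. Lpin1, a phosphatidate phosphatase, fell by 0.46 on 24 arrays (adjusted p = 0.042, and 0.114 without rat 302).

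Of 43 oxidative phosphorylation genes 36 were lower both with and without rat 302, with medians of -0.13 and -0.07, and genes at an unadjusted p under 0.05 went from 19 to 5. Ndufs8, a complex I subunit, was at 10.06, 10.67, 10.10 and 9.99 under air and at 9.77, 9.77, 9.82 and 9.79 under smoke. It fell by 0.42 (SE 0.10, adjusted p = 0.0432) with rat 302 and by 0.26 (adjusted p = 0.0422) without it, a call that ended without rat 402, 404, 405 or 406. Of 30 proteasome genes 25 were lower, with a median of -0.17 (29 and -0.12 without rat 302). Psmb4 fell by 0.28 on 24 arrays (adjusted p = 0.0442, and 0.0885 without rat 302), and Psmd1 by 0.40 only without rat 302 (adjusted p = 0.039). Ap2m1, of the clathrin adaptor, fell by 0.24 on 24 arrays (adjusted p = 0.0432) and differed by -0.18 without rat 302 (adjusted p = 0.0814), among 37 coat and secretory transport genes, 29 of them lower. Ctnnb1, beta-catenin, was at 12.98 to 13.01 under air and 12.75 to 12.81 under smoke and fell by 0.22 (SE 0.05, adjusted p = 0.0372, and 0.0422 without rat 302), though its second-brightest probe set differed by 0.28 the other way (adjusted p = 0.0813) and the call ended without rat 301, 402, 404, 405 or 406. Of 23 Hedgehog and Wnt genes 17 were lower, with a median of -0.18, and 15 without rat 302, with -0.08.

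The genes of the aryl hydrocarbon receptor and NRF2 lists did not pass. Of 9 genes of the aryl hydrocarbon receptor response limma called 0 (2 at an unadjusted p under 0.05) and 7 were higher, with a median of 0.26 (0.15 without rat 302). Cyp1a1, the classical target, was at 8.10, 8.50, 8.09 and 8.53 under air and 7.83, 7.38, 7.82 and 8.48 under smoke (-0.43, SE 0.32, adjusted p = 0.445). Cyp1b1 differed by 0.26 (SE 0.25, adjusted p = 0.55). Of 29 NRF2 antioxidant genes limma called 0 (4 at an unadjusted p under 0.05) and 18 were higher, with a median of 0.04 (0.09 without rat 302). Nqo1 was at 10.94 to 11.46 under air and 11.11 to 11.38 under smoke (0.12, SE 0.25, adjusted p = 0.807). Nor did Cyp1a1, Cyp1b1 and Nqo1 pass for smoke without particles (-0.07, -0.04 and 0.54) or under silica (-0.37, 0.48 and 0.50). The NRF2 list had median smoke differences of 0.42 without particles and 0.27 under silica.

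Several lists changed direction with rat 302. Of 33 splicing and nuclear speckle genes 28 were higher on 24 arrays, with a median of 0.24, and 11 without rat 302, with -0.04. In rat 302 this list's mean was 9.23, against 10.36 to 10.48 in its mates and 10.32 to 10.49 in the smoke rats. Of 15 cohesin and chromosome structure genes 14 were higher, with a median of 0.32, and 4 were higher without it, with -0.02. Of 37 chromatin regulators 27 and then 12 were higher, and the sole call, Arid4a (0.88, adjusted p = 0.0414), had rat 302 at 5.93 and its mates at 7.12 to 7.18, and without that rat it differed by 0.57 and did not pass (adjusted p = 0.0763). Heart and striated muscle genes went from 25 of 27 lower (median -0.52) to 22 of 27 higher (0.12). Mesothelial markers were lower both ways, 5 of 5 with a median of -0.54 and 4 of 5 with -0.59, and limma called 0 of them (3 at an unadjusted p under 0.05). The remaining lists of cell types and stress responses, shown in the plot of list medians, held 1 call on 24 arrays, the fall of Fam3b among 22 club and secretory airway genes.

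**Figure D4:**
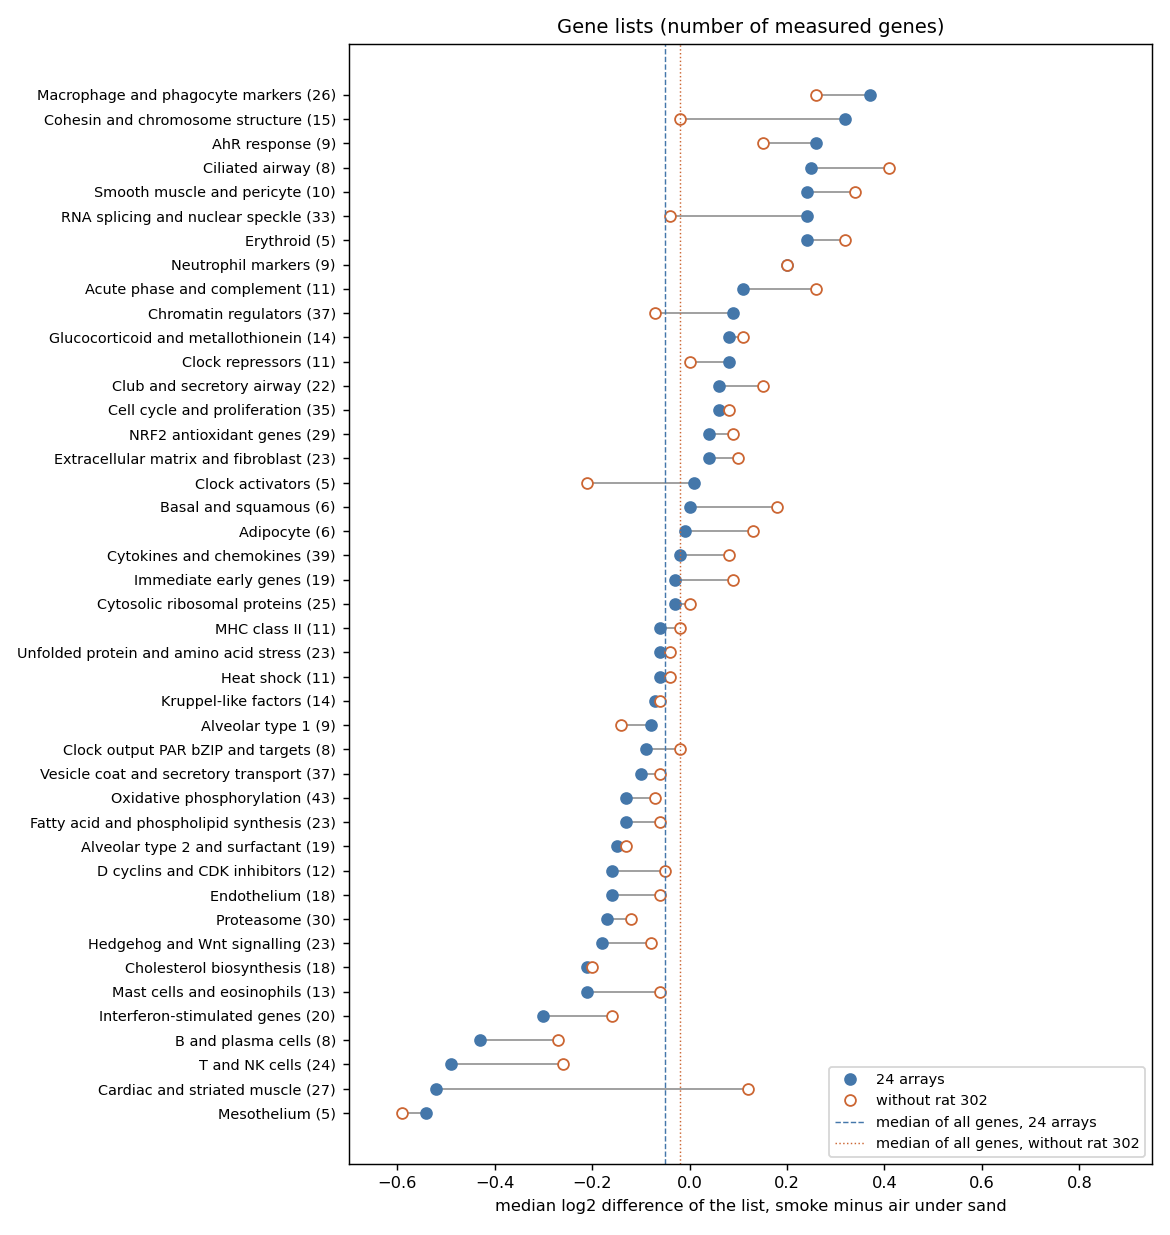
Median log2 difference of each of 43 gene lists, smoke minus air under Iraqi sand, on 24 arrays (filled) and without rat 302 (open), with the number of measured genes in brackets; dashed and dotted lines mark the medians of all genes. The splicing, cohesin, chromatin and heart muscle lists cross 0 when rat 302 is left out, and the macrophage, T and NK cell and cholesterol lists keep their side.

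The question of whether sand changed the response to smoke is answered by the difference between smoke effects. Against smoke without particles, limma called 1 gene of 14217 (0.00703%; 1257 at an unadjusted p under 0.05). Cped1, a cadherin-like protein, was at 7.96, 7.42, 8.0 and 7.81 under air and sand and 8.67, 8.55, 8.37 and 8.34 under smoke and sand, and rose 1.61-fold (0.69, SE 0.13, adjusted p = 0.015), a call that ended without rat 402. Without particles its smoke difference was -0.52 (adjusted p = 0.0659), and the smoke effects differed by 1.21 (SE 0.18, adjusted p = 0.0251). Without rat 302, Cped1 and Mtmr9, a myotubularin-related protein, were called (0.0141%). No gene was called when rat 305, 402, 404, 102, 103, 203, 204 or 205 was left out.

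Against smoke under silica, limma also called 1 gene (0.00703%; 1005 at an unadjusted p under 0.05). Ccnd2 was higher with smoke by 1.28 under sand and differed by -0.51 under silica (adjusted p = 0.425), and the difference between these effects was 1.80 (SE 0.27, adjusted p = 0.0176). Without rat 302 the calls were Ccnd2, Klf13, Mtmr9 and Atxn2 (0.0281%), and none was called when silica-group rat 501, 503, 504, 604 or 605 was left out. Klf13 differed in its smoke effect by 1.54 on 24 arrays (adjusted p = 0.0522), Rora by 1.67 (adjusted p = 0.0656) and Bbx by 1.09 (adjusted p = 0.0703). For Nr1d1 the smoke effect was -1.44 under silica (adjusted p = 0.0181) and -0.52 without particles (adjusted p = 0.386). Neither passed the test of the difference from that under sand (adjusted p = 0.983 and 0.505). Sand minus silica was 0.03 (SE 0.30), and sand minus no particles was -0.89 (SE 0.30, limma unadjusted p = 0.00781). Missing the threshold over all genes does not show that the effects were equal.

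The smoke effects elsewhere are described apart for rises and falls, without a test between them. The 29 genes that rose both ways had a median smoke difference of -0.03 without particles and -0.06 under silica, with 10 and 12 of 29 in the same direction. Of these 29, limma called 1 for smoke without particles, where 0.893% of all genes were called, and 0 for smoke under silica, where 0.00703% were. The 44 that fell had -0.17 in both, with 40 and 39 of 44 in the same direction and 4 and 1 called. Over all genes the median smoke difference was -0.01 in both, and the share of all genes in each direction was not counted. Several clock and inflammatory genes that passed under sand also passed for smoke without particles: Cry1 by 0.88 (adjusted p = 0.00817), Bhlhe41 by 1.03 (adjusted p = 0.00146), Cxcl1 by 2.11 (adjusted p = 0.000263), Gpnmb by 1.5 (adjusted p = 0.000338) and Adgre1 by -0.70 (adjusted p = 0.0254). Of Nipbl, Rora, Ccnd2, Klf13, C11h21orf91, Bbx and Cpd, none passed without particles or under silica.

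**Figure D5:**
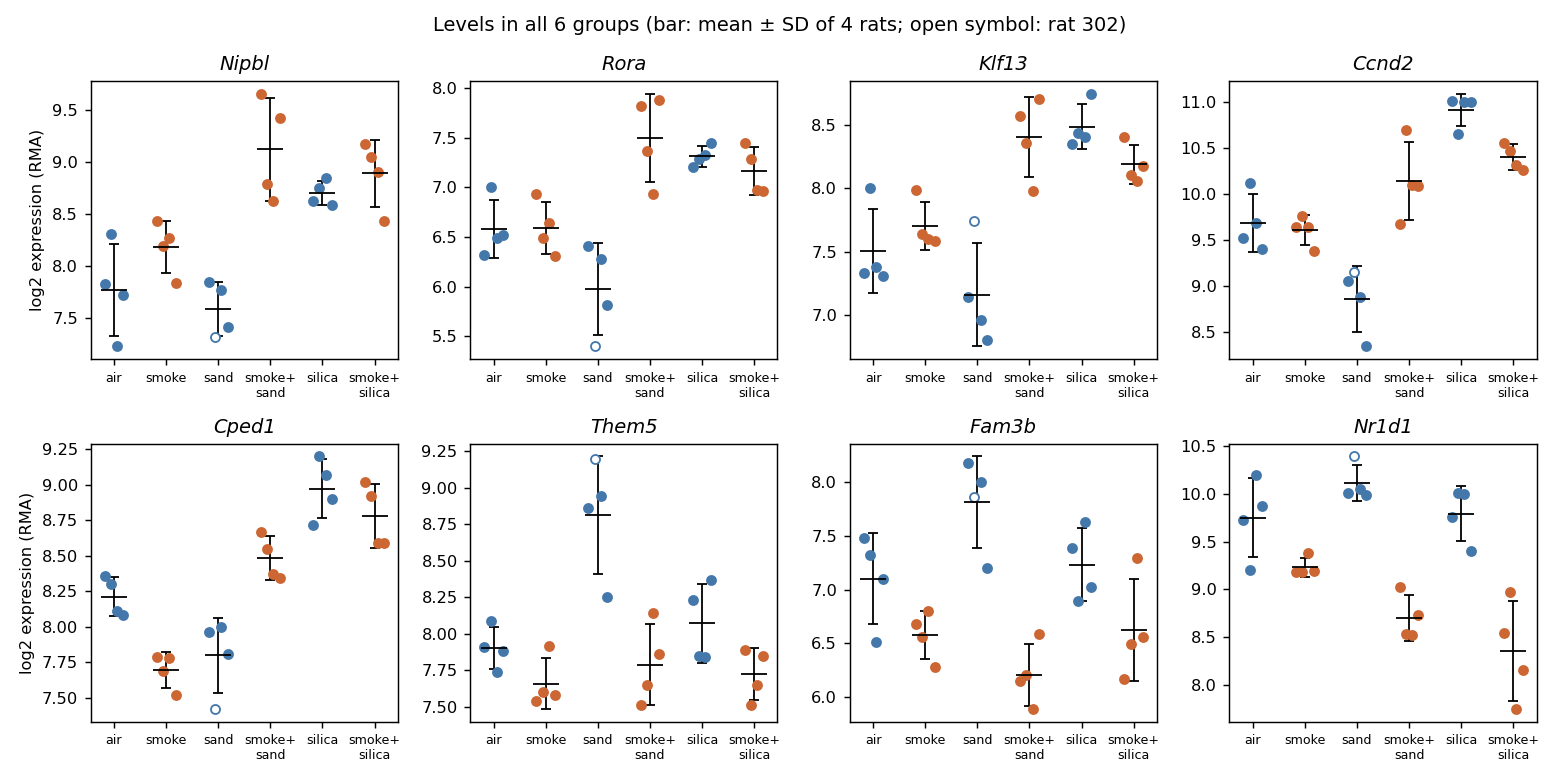
Log2 expression of 8 genes in all 6 groups of 4 rats; points are rats (orange for smoke, blue for air, open for rat 302), and bars are the mean with its SD, each panel with its own vertical range. For Nipbl, Rora, Klf13, Ccnd2 and Cped1 the smoke-and-sand mean lies nearer the silica means than the air-and-sand mean does, while Nr1d1 is low in both groups given smoke with particles.

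Set among all 6 groups, most rising genes shared a layout of the air-and-sand, silica and no-particle means, but not of the smoke-and-sand mean. Nipbl means were 7.78 ± 0.44 with air alone, 8.19 ± 0.25 with smoke alone, 7.59 ± 0.26 with air and sand, 9.13 ± 0.50 with smoke and sand, 8.70 ± 0.12 with air and silica and 8.90 ± 0.32 with smoke and silica (SD, n = 4). The air-and-sand group was the lowest and the smoke-and-sand group was the highest, with rats 402 and 406 above every silica rat. Rora means in the same order were 6.58, 6.59, 5.98, 7.50, 7.31 and 7.16. A smoke-and-sand mean above the other 4 groups, as in Nipbl and Rora, was found in 10 of the 29 (34.5%), against 14.8% of all genes. It lay within the range of those 4 groups in 19 of the 29 (65.5%), against 67.0% of all genes. In 27 of the 29 genes that rose both ways (93.1%) the air-and-sand mean was below those of the other 4 groups outside this comparison, against 19.7% of all genes, a share that the choice of genes raises by itself. The silica and no-particle groups took no part in the contrast, but their arrays entered the shared spread by which these genes were called. In 26 of the 29 (89.7%) both silica means lay above both no-particle means, against 17.7% of all genes, and this count was not tested.

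The falling genes were laid out in another way. In 38 of the 44 (86.4%) the air-and-sand mean was above those of the other 4 groups, against 38.5% of all genes, and in 32 (72.7%) the smoke-and-sand mean was below all 4, against 18.2%, which the choice of genes also raises. Both silica means lay below both no-particle means in 10 of 44 (22.7%), against 22.2% of all genes. Them5 means were 7.91 with air alone, 7.66 with smoke alone, 8.81 with air and sand, 7.79 with smoke and sand, 8.07 with air and silica and 7.72 with smoke and silica. The air-and-sand group stood above the other 5 groups, which lay close together. Nr1d1 means were 9.75, 9.23, 10.11, 8.70, 9.80 and 8.36 in that order. The 3 groups with smoke were the lowest for Nr1d1, and those given particles as well were the lowest of all.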

How the data were processed

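Lung RNA of 24 rats was hybridised to Affymetrix Rat230_2 arrays, 1 array a rat, 4 rats a group. Groups and rat numbers come from the labels. Per the labels' protocols, RNA was extracted with Trizol and cleaned on Qiagen columns. The deposited values are log2 and, per the submitters' processing notes, were made by the authors with RMA, which corrects background, equalises the arrays' distributions and summarises probes. Its version is not given in the sources used here. Since arrays are forced to 1 distribution, a shift common to most genes is lost, and small differences of dim or very bright probe sets are compressed.

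From these values, 57 control probe sets were left out. Of the rest, 20826 had 1 gene symbol in the platform annotation, 436 had several and 9780 had none. The brightest probe set over 24 arrays stood for each of 14217 genes. The 6 group means were fitted in 1 linear model with limma 3.58.1 in R 4.3.3 (lmFit, eBayes, no trend, not robust), two-sided, with Benjamini-Hochberg adjustment over all genes and a threshold of 0.05. Differences of smoke effects were contrasts of that model. Array precision is limited by the number of rats, and p-values refer to the spread between these separate animals. The code was tested on simulated data.

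The comparison, the 43 gene lists (793 of 919 entries measured, 13 through older symbols) and the named genes were chosen with earlier results of these data known. Named genes were the 12 largest rises and falls called with and without rat 302, the 5 largest rises and falls called only with it, the 5 largest called only without it, up to 4 members of each list by moderated t, a set of smoke, inflammation, clock and marker genes reported whatever their values, and genes whose smoke effects differed. Some eligible genes are not printed, and Atxn2 and Mtmr9 were named after their values were seen. Promoter letters were read from RefSeq windows of GRCr8. Alternatives were other shrinkage, weights, filters, probe-set rules and scalings, the compared groups alone, and each rat left out. Fitting every probe set as its own row, and the 8-rat fit without rat 302, were added after seeing the data. No date or batch was entered as a block.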

Additional observations from a re-analysis of the deposited data

Results flagged for a closer look

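In 158 groups of 4 rats checked (79 genes in both groups), 16 had a highest or lowest rat whose gap to the nearest other exceeded Dixon's critical share of the group's range; chance gives about 1 in 20, and genes share rats. Of the 16, 12 were in the air-and-sand group, 10 of them rat 302. Some of the 79 genes were named because their call changed with rat 302, so the choice of genes raises that rat's count by itself. That rat was high for Nr1d1 (10.39), Ndufs8 (10.67), Myl7 (11.51) and Bpifa1 (12.63). It was low for Hs6st1 (8.87), Ccar1 (6.18), Ank3 (8.89), Insig1 (10.31), Psmd1 (8.38) and Arid4a (5.93). For Nr1d1 the gap was set by 3 mates within 9.99 to 10.05, and all 4 stayed above the smoke rats.

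Air-and-sand rat 301 was low for Dbp (9.65) and high for Hgd (5.51). Among smoke-and-sand rats, 402 was low for Lyrm1 (7.86) and 405 was low for Cxcl2 (6.70). Rat 406 was high for Ccl2, at 10.19 against 7.11 to 7.15 in its mates, and for Col1a1, at 10.88 against 9.42 to 9.53.

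Differences between smoke effects passed limma's test for 2 genes: Cped1, by 1.21 between sand and no particles, and Ccnd2, by 1.80 between sand and silica.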

How the results depend on the processing

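No paired analysis was possible because replicate numbers are not shared between groups. Each rat left out in turn gave 16 to 102 rises and 13 to 601 falls, and 0 to 5 and 0 to 9 genes for the differences of smoke effects from no particles and from silica. With only the groups compared, limma called 0 rises, 0 falls and 0 differences of either kind, and, added after seeing the data, 0 rises and 2 falls without rat 302. Array weights gave 150 rises, 403 falls, and 54 and 12 differences. Without rats 302, 104 and 604 there were 81 falls and 5 differences from silica. Repeated quantile normalization gave 56 falls and 2 differences from silica. A 1.5-fold minimum left 36 rises and 22 falls, so rises then outnumbered falls. Bright genes gave 2 and mean probe sets 4 differences from silica. Array weights kept all 73 genes called both ways, and repeated quantile normalization kept 62. The cause was not tested. The bright-gene setting did not cover all of the 222 genes eligible to be named. Of the 222, 48 were called on 24 arrays, and no such setting turned the direction of any of these. Another probe set did for Nipbl (-0.11), Ubn2 (-0.06), Zfpm1 (0.02), Mau2 (0.07 and 0.03) and Ctnnb1 (0.28), and, for Trps1, called without rat 302 alone, the 3 others did on 24 arrays (0.65, 0.25 and 0.30). Signal limits the dim and the brightest genes: Ston2 and Hgd lie near the low end of the arrays' range of 2.9 to 15.04. Sftpc and Scgb1a1 lie near its high end. Batch, scan date and time of day were not in the labels, and 4 rats a group left no calls on 8 arrays alone.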
